A study of Mus musculus with 6 samples.

Results

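Transcripts of the cholesterol synthesis pathway and of its regulators were measured after ethanol or saline in whole brains of male mice aged 7 days, of the inbred strain C57BL/6J. The set held 32 genes, namely the enzymes that build cholesterol, the SREBP transcription factors with their endoplasmic reticulum (ER) partners, the fatty acid enzymes that SREBPs also drive, a sterol carrier and 2 sterol pumps. A gene was matched to probesets that the platform annotation assigns to exactly 1 gene, by its current or a former symbol, and was read from the probeset with the highest mean over the 6 arrays. In this way 31 of the 32 genes were measured, of 19938 genes on the arrays, and Acat2 was not analysed here. The pups had received 2 subcutaneous doses of 2.5 g/kg ethanol, as a 20% solution in saline, or saline alone. The second dose followed the first by 2 h, and the brains were taken 4 h after the first. Each array held RNA pooled from 3 males of different litters, so that ethanol arrays 2 and 4 and saline arrays 1, 3, 5 and 6 cover 18 mice. Each ethanol pup had a saline littermate in one of the saline pools, per the series text. The groups share strain, sex, age and pooling, and the dam was away from the cage during the injections in both. A difference in a whole-brain pool gives no cell type: fewer cells of a type and less RNA per cell cannot be told apart.

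Cells make cholesterol from acetyl-CoA through mevalonate, the isoprenoid diphosphates, squalene and lanosterol. The brain makes its own supply, since lipoprotein cholesterol hardly crosses the blood-brain barrier, and demand is high in the first postnatal weeks when glia mature and myelin is laid down. When ER sterols are low, Scap carries the SREBP precursors to the Golgi, where they are cleaved, and the freed factors bind sterol regulatory elements beside NF-Y and Sp1 sites in the genes of the pathway. When sterols are high, the Insig proteins hold Scap in the ER. Oxysterols in excess activate the liver X receptors (LXR), which induce the efflux pumps Abca1 and Abcg1.

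The promoters of 5 genes are shown as examples of how the NF-Y boxes lie before the start sites of the pathway. Idi1, Msmo1 and Dhcr7 had the smallest p-values among the genes with a window here, Insig1 is the feedback gene of the pathway, and Hmgcs1 was added after its window was found to hold the sterol element searched for. Each window is from RefSeq (GRCm38.p6), runs from 250 bases before to 50 after the annotated start, and is written 5′ to 3′ on the gene's strand, with capitals for the NF-Y box (CCAAT, or ATTGG on the other strand) and for the core of the sterol regulatory element (TCACNCCAC). The windows are chr13:8885356-8885655 on the plus strand for Idi1, chr8:64733529-64733828 on the minus strand for Msmo1, chr7:143829964-143830263 on the plus strand for Dhcr7, chr5:28071162-28071461 on the plus strand for Insig1 and chr13:119690101-119690400 on the plus strand for Hmgcs1. Dhcr7 has 3 annotated starts, and the window with the most NF-Y boxes is printed.
Idi1: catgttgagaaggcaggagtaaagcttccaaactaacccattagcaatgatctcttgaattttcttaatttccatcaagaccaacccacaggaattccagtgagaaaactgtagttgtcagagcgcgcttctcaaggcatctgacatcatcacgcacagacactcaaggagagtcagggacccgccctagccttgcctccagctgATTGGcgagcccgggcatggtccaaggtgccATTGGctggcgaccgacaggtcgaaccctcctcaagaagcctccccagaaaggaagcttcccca
Msmo1: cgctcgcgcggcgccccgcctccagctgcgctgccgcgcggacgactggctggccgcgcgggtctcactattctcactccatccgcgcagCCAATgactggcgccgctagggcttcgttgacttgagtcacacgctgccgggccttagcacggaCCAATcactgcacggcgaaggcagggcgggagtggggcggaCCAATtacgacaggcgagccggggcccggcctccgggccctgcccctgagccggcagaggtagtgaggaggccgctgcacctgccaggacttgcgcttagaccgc
Dhcr7: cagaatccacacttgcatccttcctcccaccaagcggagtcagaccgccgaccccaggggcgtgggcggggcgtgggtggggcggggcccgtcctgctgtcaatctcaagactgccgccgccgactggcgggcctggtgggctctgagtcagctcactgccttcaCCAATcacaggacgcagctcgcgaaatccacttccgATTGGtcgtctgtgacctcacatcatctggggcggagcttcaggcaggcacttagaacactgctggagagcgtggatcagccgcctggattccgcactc
Insig1: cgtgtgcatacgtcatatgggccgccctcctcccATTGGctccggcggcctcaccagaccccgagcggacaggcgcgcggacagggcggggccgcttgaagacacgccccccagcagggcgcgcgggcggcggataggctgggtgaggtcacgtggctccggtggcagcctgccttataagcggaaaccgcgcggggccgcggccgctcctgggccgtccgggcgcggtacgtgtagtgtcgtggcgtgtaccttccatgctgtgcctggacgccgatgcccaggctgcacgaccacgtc
Hmgcs1: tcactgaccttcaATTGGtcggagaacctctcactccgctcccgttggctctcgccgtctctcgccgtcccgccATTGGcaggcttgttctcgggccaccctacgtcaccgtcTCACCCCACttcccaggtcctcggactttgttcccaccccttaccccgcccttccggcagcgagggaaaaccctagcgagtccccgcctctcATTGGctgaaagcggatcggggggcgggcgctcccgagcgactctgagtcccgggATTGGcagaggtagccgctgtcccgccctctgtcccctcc

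Of the 32 genes, 25 had a window in the RefSeq table, and the other 7 (Abcg1, Fdft1, Fdps, Scd1, Scd2, Sqle and Stard4) are named only. A gene counted if any of its windows held the motif on either strand. CCAAT was found for 20 of the 25 genes (80.0%), against 41.1% of all 27025 genes with a window and 42.3% of the 11775 such genes among those tested on the arrays. The GC box GGGCGG, the Sp1 site, was found for 21 of the 25 (84.0%), against 38.2% of all genes and 64.0% of tested genes. The sterol element core was found for 1 of the 25 (4.0%), Hmgcs1, against 1.44% of all genes. Mvk held 5 NF-Y matches, Hmgcs1 and Nsdhl 4 each, and Msmo1, Fasn, Hsd17b7 and Insig2 3 each. In Fasn the matches at -62 and -59, on opposite strands, share bases. No NF-Y match lay in the windows of Abca1, Acaca, Acat2, Elovl6 and Scap. Matches of the different motifs overlapped in 0 places. With the 250 bases before the start alone, 19 genes held CCAAT, 21 the GC box and 1 the sterol core. Counted from the start site, the boxes began at -45 and -14 in Idi1 and at -160, -96 and -55 in Msmo1, and the sterol core of Hmgcs1 began at -137. These matches describe the letters of the windows and were not tested for binding.

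Levels below are log2 intensities as deposited, and a change is the log2 difference, ethanol minus saline, ± its standard error (SE) in limma. The 31 genes had mean levels from 7.03 to 13.15, all above 6.19. That value is the 95th percentile of 1190 olfactory and vomeronasal receptor genes that served as a guide to background. All 31 were among the 14953 genes tested, which were chosen by leaving out the dimmest 25% and not by this guide. Levels of different probes are not compared with each other. Neuronal markers (Rbfox3, Syt1, Snap25, Tubb3, Map2, Nefl, Stmn2 and Elavl4) averaged 12.06 to 12.16 on the saline arrays and 12.09 on both ethanol arrays, as the label brain implies. Over tested genes, saline array 3 stood somewhat apart, with r of 0.995 to 0.998 with the other arrays against 0.997 to 0.999 among those. These ranges overlap. Its median of tested genes was 8.29 against 8.34 to 8.38. Over all probesets, however, its median of 6.84 lay inside the 6.82 to 6.89 of the other arrays. With 6 arrays the precision of each value is limited by their number, and the spread tested is that between pools of animals.

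No gene of the set passed the limma test in the fit of all 6 arrays, where the smallest adjusted p was 0.12, and the changes were small in both directions. Over all genes tested, 0.0803% passed (12 genes). The changes of the 31 genes lay between -0.26 for Idi1 and 0.27 for Abcg1, and 20 of them were under 0.1 in size. Their median was -0.023, beside -0.019 over all tested genes, with 15 above 0 and 16 below. SEs ran from 0.06 to 0.08, so that the 95% intervals of the fit reached 0.13 to 0.18 to either side of a change. These intervals are for single genes and were not adjusted for the number of genes.

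At an unadjusted p under 0.05 the set had 6 of 31 genes (19.4%), where all tested genes had 12.3%. With ethanol, 3 were higher, Abcg1, Dhcr7 and Ebp (9.68%, against 3.85% of tested genes), and 3 were lower, Idi1, Msmo1 and Scd1 (9.68%, against 8.44%). Both ethanol arrays lay beyond every saline array for 9 genes (29.0%), where 22.6% of tested genes did so. They lay above for Ebp, Dhcr7, Abca1 and Abcg1 (12.9%, against 7.68%) and below for Idi1, Fdft1, Msmo1, Stard4 and Scd1 (16.1%, against 14.9%). The shares of lower genes were close to the background, and those of higher genes rest on 3 and 4 genes. The closest distance between the groups was 0.22 for Abcg1, 0.13 for Dhcr7, 0.12 for Idi1, 0.10 for Msmo1 and 0.08 for Ebp, and between 0.01 and 0.04 for Fdft1, Stard4, Scd1 and Abca1, so these last 4 were apart by a narrow margin.

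Without saline array 3, again 0 of 31 passed, with 0.0936% of all genes (14) passing in limma. The genes at an unadjusted p under 0.05 were then 9 (29.0%, against 13.8%), with the same 3 higher (9.68%, against 3.27%) and 6 lower (19.4%, against 10.5%), since Tm7sf2, Stard4 and Acly joined Idi1, Msmo1 and Scd1. The groups did not overlap for 16 genes (51.6%, against 31.9%). Of these, 4 were higher (12.9%, against 8.12%) and 12 lower (38.7%, against 23.8%), as Hmgcs1, Mvd, Tm7sf2, Srebf1, Srebf2, Fasn and Acly came in below the remaining saline arrays. The median of the set was then -0.033 beside -0.032 over all genes.

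**Figure D1:**
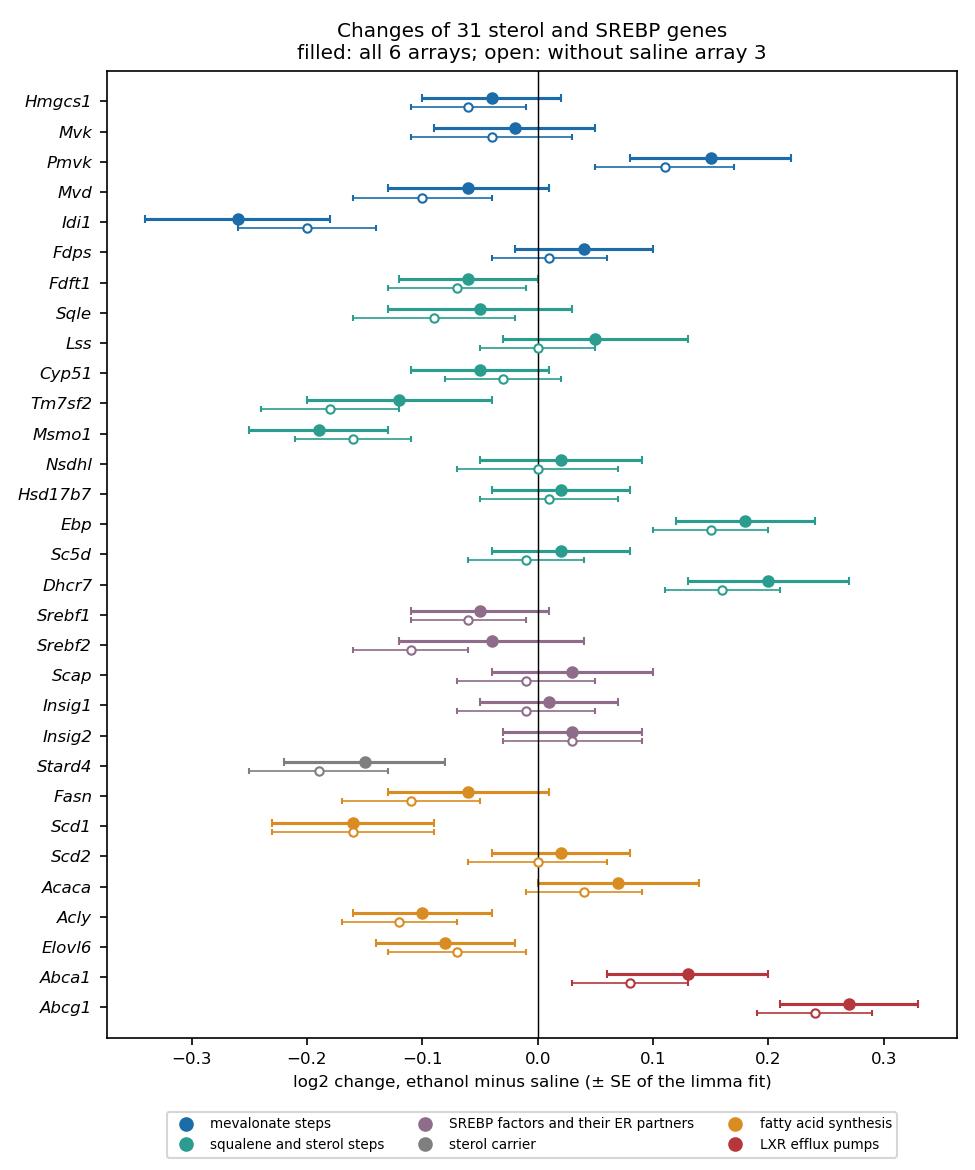
Log2 change, ethanol minus saline, of the 31 measured genes by role, with bars for the SE of the limma fit; filled points are the fit of all 6 arrays and open points the fit without saline array 3. Abcg1 at 0.27 and Idi1 at -0.26 lie farthest from 0, and 20 of the 31 filled points lie within 0.1 of it.

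The mevalonate steps were led by Idi1, which isomerises isopentenyl diphosphate into the starter unit of isoprenoid chains. Its level was 10.63, 10.93, 10.74 and 10.68 on saline arrays 1, 3, 5 and 6 and 10.46 and 10.51 on ethanol arrays 2 and 4. Both ethanol values lay under every saline value, and saline array 3 was the highest of all. The change was -0.26 ± 0.08, or -16.6% (limma adjusted p = 0.225). Without saline array 3 the change was -0.20 ± 0.06 (limma adjusted p = 0.193), so it remained without the array that stood apart. A second Idi1 probeset read 10.60, 10.96, 10.72 and 10.67 on the saline arrays and 10.49 and 10.41 on the ethanol arrays, with a change of -0.29 ± 0.09. The annotation gives both probesets the name Idi1, but their positions were not checked, so it is not known here whether both read the Idi1 gene itself.

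Pmvk, the kinase that makes mevalonate diphosphate, stood at the other end of this group. It read 6.95, 6.86, 7.02 and 7.08 on saline arrays 1, 3, 5 and 6 and 7.18 and 7.08 on ethanol arrays 2 and 4. Saline array 6 and ethanol array 4 met at the same value, and the change was 0.15 ± 0.07 (limma adjusted p = 0.412), or 0.10 without ethanol array 2 and 0.21 without ethanol array 4. The other steps were within 0.1 of 0, at -0.04 ± 0.06 for Hmgcs1, the synthase that feeds the pathway, -0.02 ± 0.07 for Mvk, the mevalonate kinase, -0.06 ± 0.07 for Mvd, the decarboxylase, and 0.04 ± 0.06 for Fdps, which makes farnesyl diphosphate. The 6 genes had a median of -0.034, and 1 of them was under an unadjusted p of 0.05. Mvk was split between the ethanol pools, at 9.12 on array 2 and 9.35 on array 4, a gap larger than its saline range of 0.15.

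Among the 11 genes from squalene to cholesterol, Msmo1 was lower and Ebp and Dhcr7 were higher on both ethanol arrays. Msmo1 is an oxidase that starts the removal of sterol methyl groups after the step of Cyp51, the lanosterol demethylase. It read 11.12, 11.27, 11.16 and 11.17 on saline arrays 1, 3, 5 and 6 and 11.02 and 10.96 on ethanol arrays 2 and 4. As for Idi1, saline array 3 was its highest array. Its change was -0.19 ± 0.06 (limma adjusted p = 0.251), and -0.16 without saline array 3 (limma adjusted p = 0.225).

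Dhcr7, the reductase that finishes cholesterol in one branch of the route, read 9.76, 9.59, 9.75 and 9.78 on the saline arrays and 9.92 and 9.93 on the ethanol arrays. The ethanol pools were nearly equal and above every saline pool, with a change of 0.20 ± 0.07, or 15.1% (limma adjusted p = 0.252). Ebp, the isomerase that moves the double bond of the sterol ring, read 8.64, 8.56, 8.67 and 8.64 on the saline arrays and 8.75 and 8.86 on the ethanol arrays. Its change was 0.18 ± 0.06 (limma adjusted p = 0.28). Saline array 3 was the lowest saline array for both genes, and without it the changes were 0.16 for Dhcr7 (limma adjusted p = 0.216) and 0.15 for Ebp (limma adjusted p = 0.257). Without ethanol array 4, which leaves 1 ethanol pool, the changes were 0.20 for Dhcr7, 0.12 for Ebp and -0.16 for Msmo1, and none of these 3 stayed at an unadjusted p under 0.05. Without ethanol array 2 they were 0.21, 0.23 and -0.22, and all 3 stayed at that p.

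Tm7sf2, a sterol reductase of the ER and nuclear envelope, read 9.55, 9.28, 9.48 and 9.48 on saline arrays 1, 3, 5 and 6 and 9.23 and 9.41 on ethanol arrays 2 and 4. Its groups overlapped through saline array 3 alone. The change was -0.12 ± 0.08 (limma adjusted p = 0.568) with that array and -0.18 ± 0.06 (limma adjusted p = 0.265) without it. With 1 ethanol pool left it was -0.03 without ethanol array 2 and -0.21 without ethanol array 4, so its size rested on ethanol array 2.

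The other 7 genes of these steps were within 0.1 of 0. Fdft1, squalene synthase, had a change of -0.06 ± 0.06 with both ethanol arrays (12.50 and 12.49) just under the lowest saline arrays (12.51), and a second probeset gave -0.12 ± 0.06. Sqle, squalene epoxidase, was at -0.05 ± 0.08, Lss, lanosterol synthase, at 0.05 ± 0.08, and Cyp51, the lanosterol demethylase, at -0.05 ± 0.06. Nsdhl and Hsd17b7, a dehydrogenase and a ketone reductase that complete demethylation, were each at 0.02 (SE 0.07 and 0.06), and Sc5d, the sterol desaturase, was at 0.02 ± 0.06. The ethanol pools disagreed on several of them. Ethanol array 2 was under ethanol array 4 by 0.21 for both Sqle and Nsdhl and by 0.12 for Hsd17b7, each more than the range of the saline arrays. The median of the 11 genes was 0.02 with all 6 arrays, with 6 above 0 and 5 below. Without saline array 3 it was -0.014, with 4 above 0 and 7 below. The genes along the route were not all on 1 side of 0. Msmo1 and Tm7sf2 were below it, Ebp and Dhcr7 above it, and Cyp51, Nsdhl, Hsd17b7 and Sc5d within 0.1 of it. None of them passed the threshold, and a trend along the route was not tested.

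**Figure D2:**
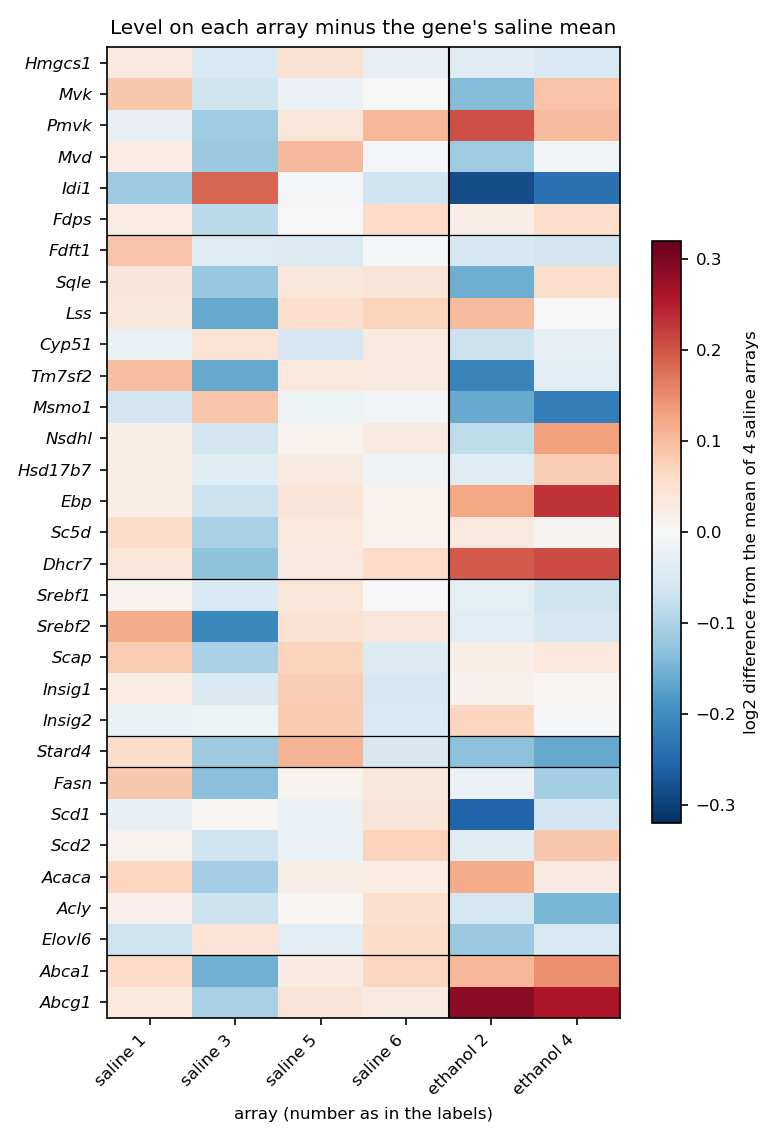
Level of each gene on each array minus its mean over the 4 saline arrays (colour, log2), with genes in rows by role and arrays in columns, saline left and ethanol right of the line. Idi1 and Msmo1 are lower and Abcg1, Dhcr7 and Ebp higher on both ethanol arrays, and saline array 3 is the lowest saline array in 23 of 31 rows.

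The regulators differed little between the groups. Srebf2, whose product is the main activator of cholesterol genes, read 10.36, 10.03, 10.29 and 10.28 on saline arrays 1, 3, 5 and 6 and 10.21 and 10.19 on ethanol arrays 2 and 4. The ethanol values lay inside the saline range, whose lower end was saline array 3, and the change was -0.04 ± 0.08 (limma adjusted p = 0.88) with it and -0.11 ± 0.05 (limma adjusted p = 0.387) without it. Srebf1, whose product favours fatty acid genes, had the lowest change of the 5 regulators. It read 8.10, 8.04, 8.12 and 8.08 against 8.05 and 8.02, a change of -0.05 ± 0.06 (limma adjusted p = 0.79).

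Insig2, an ER anchor of Scap, had the highest change of the 5. It read 9.34, 9.35, 9.45 and 9.32 on the saline arrays and 9.43 and 9.36 on the ethanol arrays, a change of 0.03 ± 0.06 with groups that overlapped. Insig1, the other anchor and itself a target of SREBPs, read 10.88, 10.81, 10.93 and 10.80 on the saline arrays and 10.87 and 10.86 on the ethanol arrays. Both ethanol values lay inside the saline range, with a change of 0.01 ± 0.06 and a 95% interval of -0.13 to 0.14. Scap, the escort, was at 0.03 ± 0.07. None of the 5 was under an unadjusted p of 0.05 in either fit. Stard4, a soluble sterol carrier that SREBPs induce, read 8.19, 8.02, 8.24 and 8.08 on the saline arrays and 8.0 and 7.97 on the ethanol arrays. The groups did not overlap but came within 0.02 of each other at saline array 3, and the change was -0.15 ± 0.07 (limma adjusted p = 0.431), or -0.19 ± 0.06 (limma adjusted p = 0.23) without that array.

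**Figure D3:**
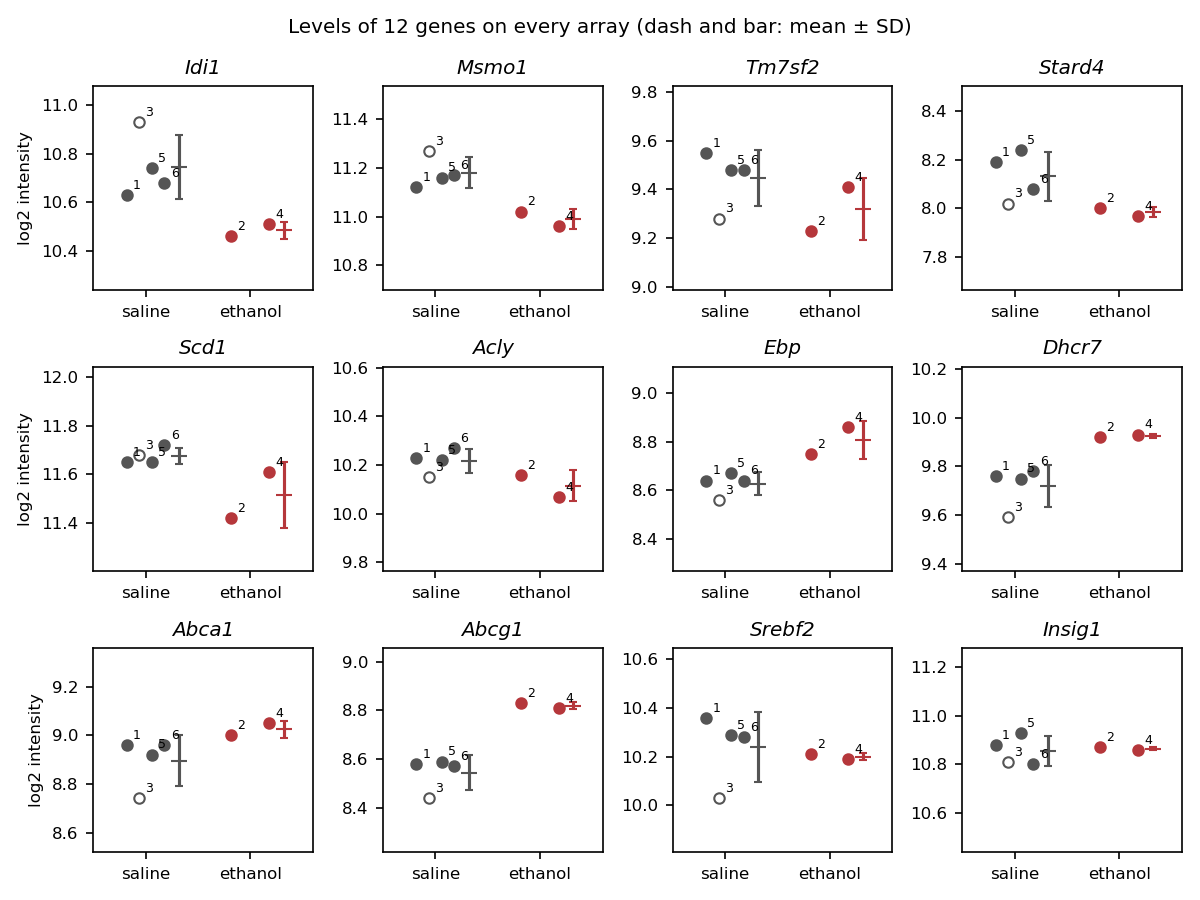
Log2 intensity of 12 genes on every array, with array numbers beside the points, saline in grey and ethanol in red; the dash and bar are the mean and SD of the 4 saline and 2 ethanol arrays, and saline array 3 is the open point. The groups are apart for Idi1, Msmo1, Stard4, Scd1, Ebp, Dhcr7, Abca1 and Abcg1 and overlap for Tm7sf2, Acly, Srebf2 and Insig1.

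Of the 6 fatty acid genes, Scd1 had the lowest change and Acaca the highest. Scd1, a desaturase that makes oleate, read 11.65, 11.68, 11.65 and 11.72 on saline arrays 1, 3, 5 and 6 and 11.42 and 11.61 on ethanol arrays 2 and 4. Its change was -0.16 ± 0.07 (limma adjusted p = 0.362), and it rested on 1 pool: without ethanol array 2 it was -0.06 (limma adjusted p = 0.841), and without ethanol array 4 it was -0.26 (limma adjusted p = 0.465). The close paralog Scd2, the desaturase known as the main form of the young brain, was at 0.02 ± 0.06. Signal shared between the paralogs' probes cannot be told apart here.

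Acaca, which makes malonyl-CoA, read 10.00, 9.82, 9.95 and 9.96 on the saline arrays and 10.05 and 9.96 on the ethanol arrays, a change of 0.07 ± 0.07. A second Acaca probeset gave -0.06 ± 0.07, so the sign of this change differed between the probesets. Acly, which supplies cytosolic acetyl-CoA from citrate, read 10.23, 10.15, 10.22 and 10.27 on the saline arrays and 10.16 and 10.07 on the ethanol arrays. Its change was -0.10 ± 0.06 (limma adjusted p = 0.539), and -0.12 (limma adjusted p = 0.354) without saline array 3, which was its lowest saline array. It was -0.15 without ethanol array 2 and -0.06 without ethanol array 4. Fasn, the fatty acid synthase, was at -0.06 ± 0.07 and Elovl6, an elongase, at -0.08 ± 0.06. The 6 genes had a median of -0.074, with 4 below 0, where 58.6% of all tested genes were below 0.

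The efflux pumps were both higher on the ethanol arrays. Abcg1, which loads cholesterol onto lipoprotein particles, read 8.58, 8.44, 8.59 and 8.57 on saline arrays 1, 3, 5 and 6 and 8.83 and 8.81 on ethanol arrays 2 and 4. The ethanol values stood 0.22 or more above every saline value, and saline arrays 1, 5 and 6 lay between 8.57 and 8.59. The change was 0.27 ± 0.06, or 1.21-fold, with a 95% interval, not adjusted for the number of genes, of 0.13 to 0.41. It had the smallest p of the set (limma adjusted p = 0.12). It was 0.24 ± 0.05 without saline array 3 (limma adjusted p = 0.109), 0.26 without ethanol array 2 (limma adjusted p = 0.322) and 0.29 without ethanol array 4 (limma adjusted p = 0.456).

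Abca1, which starts efflux by lipidating apolipoproteins, read 8.96, 8.74, 8.92 and 8.96 on the saline arrays and 9.0 and 9.05 on the ethanol arrays. Both ethanol values were above the saline values, by 0.04 at the closest. The change was 0.13 ± 0.07 (limma adjusted p = 0.51), and 0.08 ± 0.05 (limma adjusted p = 0.537) without saline array 3, its lowest array. Averaged over both pumps, the ethanol arrays were 0.197 and 0.204 above the saline mean, and the saline arrays lay between -0.128 and 0.048 of it.

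**Figure D4:**
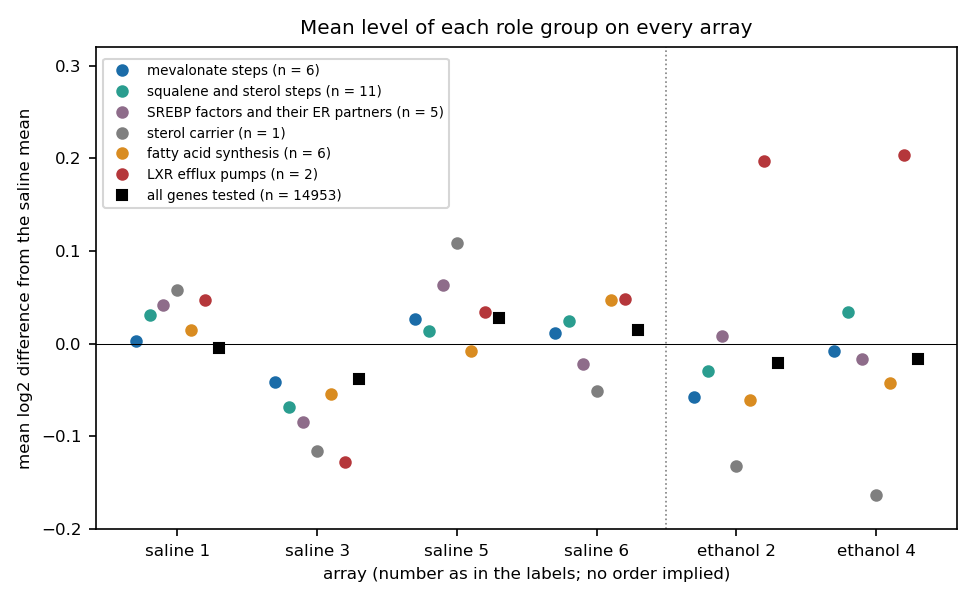
Mean over each role group of the log2 difference from the saline mean, for every array, with all 14953 tested genes as black squares and the number of genes in the legend. The efflux pumps are at 0.197 and 0.204 and the sterol carrier at -0.132 and -0.163 on the ethanol arrays, and on saline array 3 every group is below 0.

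Saline array 3 set one end of the saline range for most genes of the set. It was the lowest saline array for 23 of the 31 genes (74.2%, against 51.3% of all tested genes) and the highest for 3 (9.68%, against 17.5%), namely Idi1, Msmo1 and Cyp51. The median range of the saline arrays was 0.151 for the set and 0.068 without that array, beside 0.165 and 0.104 over all genes. The ethanol pools differed by more than the saline range for 5 genes (16.1%, against 20.9%), Mvk, Sqle, Nsdhl, Scd1 and Hsd17b7, and in each of them ethanol array 2 was the lower. Over the whole set, ethanol array 2 was under ethanol array 4 for 16 of the 31 genes (51.6%, against 51.8% of all tested genes).

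Genes that surround the pathway were read from 5 lists with 81 genes, of which 73 were tested. Ch25h (5.58), Acacb (5.71), Apobec1 (5.83) and Cyp27a1 (5.97) had mean levels under the receptor guide of 6.19. In limma 0 of the 73 passed, and 4 (5.48%, against 12.3% of all genes) were at an unadjusted p under 0.05. All 4 were higher with ethanol (against 3.85%). Without saline array 3 the same 4 were higher at that p (5.48%, against 3.27%) and 4 others were lower (5.48%, against 10.5%). The lower ones were Aacs at -0.14, Tmem97 at -0.13, and Nfyc and Osbp at -0.12 each. None of them passed (limma adjusted p = 0.287 for Aacs and Tmem97, 0.342 for Nfyc and 0.322 for Osbp). With all 6 arrays, the groups did not overlap for Lipa, Lpin1, Nr1d1, Mbtps1, Nus1, Gpam, Cyp27a1, Lrp1, Npc2 and Stard5, all higher. They were also apart for Ufd1, Nfyc, Abca7 and Cav1, all lower. Of all tested genes, 7.68% were apart on the higher side and 14.9% on the lower. Lipa, the lysosomal lipase that frees cholesterol from its esters, read 8.98, 8.57, 8.88 and 8.94 on saline arrays 1, 3, 5 and 6 and 9.12 and 9.13 on ethanol arrays 2 and 4. Its change was 0.28 ± 0.10 (limma adjusted p = 0.272), and 0.19 without saline array 3, which was low for this gene. Lpin1, a phosphatidate phosphatase and SREBP target, had a change of 0.26 ± 0.07 (limma adjusted p = 0.168). Nr1d1, the clock repressor REV-ERBα, was at 0.17 ± 0.06 (limma adjusted p = 0.312). Mbtps1, the protease that makes the first cut in SREBPs, was at 0.16 ± 0.06 (limma adjusted p = 0.294). The LXR, oxysterol and efflux list, without Abca1 and Abcg1, had a median change of 0.026 over 15 of its 18 genes. Only Nr1d1 of these was at an unadjusted p under 0.05. Nr1h2 and Nr1h3, the genes of the LXRs, and Ncor1 were on the list but were not among the genes tested. Apoe was at 0.03, Lpcat3 at 0.01 and Mylip at -0.09. The medians were 0.034 for 18 uptake, transport and storage genes, -0.014 for 19 other SREBP targets, -0.019 for 12 other SREBP processing genes and -0.02 for 9 genes of the isoprenoid branches. These list medians are of all 6 arrays and were not computed without saline array 3. Without that array, Rxrb, Abcg4, Abca2, Abca3, Apoe and Lpcat3 of the LXR list moved from above 0 to between -0.01 and -0.04. Rxra (0.12), Cyp27a1 (0.06) and Nr1d1 (0.15) of that list stayed above 0.

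Markers of oligodendrocyte precursors and astrocytes, glia known to make much of the brain's sterol, lay on both sides of 0, and none passed the limma test. Of 8 precursor markers 3 were above 0 and 5 below, with a median change of -0.062, and of 9 astrocyte markers 4 were above 0 and 5 below, with a median of -0.002. Olig2, a factor of the oligodendrocyte lineage, read 9.76, 9.67, 9.63 and 9.62 on saline arrays 1, 3, 5 and 6 and 9.41 and 9.29 on ethanol arrays 2 and 4, a change of -0.32 ± 0.07 (limma adjusted p = 0.0827). With Olig1 at -0.16, 2 of 8 precursor markers were lower at a p of under 0.05 before adjustment, where 8.44% of all tested genes were. Gpr17, a marker of committed precursors, was at 0.07 with both ethanol arrays above every saline array. The mean level of the precursor list was 9.15 to 9.21 on the saline and 9.07 and 9.14 on the ethanol arrays. Of 9 astrocyte markers, S100b (-0.18 ± 0.06) and Sox9 (-0.13 ± 0.06) were lower at that p, with a mean level of 9.89 to 9.91 on the saline and 9.84 and 9.89 on the ethanol arrays. Myelin markers had none of 9 at that p and mean levels of 8.52 to 8.55 and of 8.39 and 8.61, so ethanol array 2 was the lowest array of the 6 and ethanol array 4 the highest. Neuronal markers had 1 of 8 at that p, Snap25 at -0.19 ± 0.06. The pituitary list, led by Gh at -1.52 ± 0.38, was lower for 4 of 4 tested genes at that p, or 2 of 4 without saline array 3 (against 10.5% of all genes), with means of 7.02 to 7.27 on the saline and 6.83 and 6.01 on the ethanol arrays. Of the markers on these lists, the myelin gene Opalin (5.50 on the saline and 5.51 on the ethanol arrays, as means) and the pituitary genes Prl (5.16 and 4.81) and Pomc (5.58 and 5.27) were among the dim genes left out, and Fshb lay under the receptor guide at a mean of 5.67. The part of cell makeup in the changes of the sterol genes was not tested.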

How the data were processed

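RNA of whole brain was measured on Affymetrix whole-transcript arrays, 4 saline and 2 ethanol, with 200 ng of pooled RNA labelled for each. The authors deposited 1 log2 value per probeset and array, taken to be log2 from its range of 4.10 to 14.86, since no source used here gives the base. Per the submitters' processing notes the software was Partek 6.6; how background, normalization and summarisation were handled is not stated there, and small shifts of a whole array would enter every change. Of 35556 probesets, the platform annotation gave 21789 a single gene, 1621 several and 12146 none listed here; 21698 were matched to a current record.

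Genes were read from their brightest probeset, the dimmest 25% were left out, and 14953 genes were fitted with limma 3.58.1 (lmFit and eBayes, R 4.3.3), treatment alone, two-sided, with Benjamini-Hochberg adjustment over all of them, with 0.05 as the threshold. Residual degrees of freedom were 4, to which the variance prior added 8.1. On simulated data for this comparison, over 14953 genes, 12, 42, 49 and 50 of 50 changed genes were recovered at log2 changes of 0.25, 0.5, 1 and 2, with 9 unchanged genes called. Members and lists were chosen with earlier results of these data known. All measured members are named; those at an unadjusted p under 0.05 in either fit, and the first and last in each role, are given on every array, as are Srebf2 and Insig1 by later choice. No set test was run, and counts stand beside those of all tested genes. Alternatives were 15 settings of filter, probeset, scaling, weights, prior and left-out array, plus a shorter promoter window. Promoters were matched by symbol to RefSeq (GRCm38.p6), whose build was not set against the arrays.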

Additional observations from a re-analysis of the deposited data

Results flagged for a closer look

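Among the 31 genes, 3 had a saline array far from the others of its group by Dixon's test of a group of 4, and in each it was saline array 3 on the low side. Sqle read 10.50 there against 10.65 to 10.66 on the other saline arrays, a gap of 0.964 of the group's range. Abcg1 read 8.44 against 8.57 to 8.59 (0.9 of the range), and Lss 9.32 against 9.51 to 9.55 (0.849 of the range). Chance flags about 1 in 20 groups. Dixon's test was not run on the other tested genes, so no share over all genes stands beside the 3. Saline array 3 was the highest or lowest saline array for 68.8% of all tested genes and for 83.9% of the set. Without saline array 3 the change of Abcg1 was 0.24 in place of 0.27, that of Sqle -0.09 in place of -0.05, and that of Lss was -0.004 in place of 0.05.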

How the results depend on the processing

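Over the alternatives, leaving aside the fit of every probeset on its own and Pmvk with the dimmest 50% left out, where it was not tested, 433 values of member genes were computed, of which 419 kept their direction and none passed the threshold; the smallest adjusted p was 0.0619, for Abcg1 after quantile normalization, whose change ranged from 0.238 to 0.287. The count of passing genes over all tested was 52 with the dimmest 50% left out, 56 with array weights (saline array 3 at 0.37), 48 with a prior that follows the mean level, and 0 with no prior, where 1535 genes had an unadjusted p under 0.05 in limma's fit; it ran from 4 to 16 with 1 array left out, lowest without ethanol array 4. Members at an unadjusted p under 0.05 were 5 higher after centring (16.1%, against 5.64% of all tested genes). After quantile normalization they were also 5 higher (16.1%, against 6.89%). They were 5 lower with array weights (16.1%, against 9.65%) and 1 lower with no prior (3.23%, against 7.65%). With 1 array left out they were 1 to 4 higher and 2 to 6 lower (2.51% to 4.0% and 5.32% to 10.5% of all tested genes), and members with groups apart were 4 to 9 higher and 5 to 12 lower. Over the left-out arrays, the groups were apart for 8.12% to 20.2% of all tested genes on the higher side and 15.9% to 29.2% on the lower. Without ethanol array 2, a single ethanol array was above every saline array for 9 members (29.0%, against 20.2% of all genes). It was below for 7 (22.6%, against 28.1%). Without ethanol array 4, the single ethanol array was above for 7 (22.6%, against 17.2%) and below for 12 (38.7%, against 29.2%). At that p the fewest higher members came without ethanol array 4 and the most lower ones without saline array 3. The median change of the set ran from -0.038 to 0.006 over the arrays left out. Directions turned only for 10 members at most 0.05 from 0 in the fit of all arrays, by array weights for Sc5d (-0.001) and by left-out arrays for Mvk (-0.138 to 0.092), Sqle (-0.156 to 0.057), Lss (-0.004 to 0.102), Insig1 (-0.009 to 0.035), Insig2 (-0.003 to 0.068), Sc5d (-0.014 to 0.04), Scap (-0.007 to 0.055), Nsdhl (-0.081 to 0.13), Hsd17b7 (-0.038 to 0.078) and Scd2 (-0.038 to 0.085); the cause was not tested. No paired analysis was possible because the labels share no replicate number between the groups, although littermates were split between them. Where 1 ethanol array was left, it was assumed to vary like the saline arrays.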

Other observations

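Among markers of other cells, Sostdc1 of the choroid plexus read 9.52, 9.75, 9.65 and 9.61 on saline arrays 1, 3, 5 and 6 and 9.35 and 9.28 on ethanol arrays 2 and 4, a change of -0.32 ± 0.07 (limma adjusted p = 0.102), while the list of 6 choroid plexus genes had a median change of -0.002. The medians were -0.027 for 6 genes of microglia and macrophages and for 7 of endothelium, with none at an unadjusted p under 0.05 in limma. Without saline array 3, Kdr at -0.14 and Slco1c1 at -0.13 of the endothelium list were lower at that p (28.6%, against 10.5% of all tested genes). The microglial gene Aif1 was among the dim genes left out. Of 6 genes of meninges and fibroblasts, Bmp7 was lower at an unadjusted p under 0.05 with all 6 arrays, where 8.44% of all tested genes were. Its change was -0.17 ± 0.06 (limma adjusted p = 0.294). The list had a median of -0.032, and its gene Lum lay under the receptor guide at a mean of 5.80. The 2 erythroid genes tested, Alas2 and Slc4a1, were at -0.23 ± 0.17 and -0.18 ± 0.10. Without saline array 3 they were at -0.36 ± 0.15 and -0.25 ± 0.09 (limma adjusted p = 0.342 and 0.254). Both then had an unadjusted p under 0.05, where 10.5% of all tested genes were lower at that p.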
